A study of Mus musculus with 8 samples.

Results

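A group of 10 genes that build the tight junction were followed in intestinal crypts of mice that lack Mex3a: the claudins Cldn2, Cldn3, Cldn4, Cldn7, Cldn8, Cldn12, Cldn15 and Cldn23, together with occludin (Ocln) and ZO-1 (Tjp1). They were picked by gene name, with earlier results of these data known, and make up 10 of the 55114 genes in the count table. All 10 passed the filter on low counts, which left 16109 genes for testing.

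The RNA-Seq libraries compare crypts of 4 mice without Mex3a (Mex3a-/-, KO) with those of 4 of their littermates (Ctrl, WT), all C57BL/6 and aged 8 weeks. The KO allele is constitutive, with exon 1 and part of exon 2 removed in every cell of the animal, so that epithelium and all other tissues lack the gene alike. Crypts were loosened with EDTA, shaken off and passed through a strainer, without cell sorting, and the labels do not say from which part of the intestine they came. Between 20324184 and 30654105 reads were counted on genes per mouse, the deepest library holding 1.51 times the reads of the shallowest.

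Tight junctions seal the gap between neighbouring epithelial cells below their apical surface. Claudins are membrane proteins whose outer loops meet those of the next cell. Some, such as claudin 2 and claudin 15, form pores for small cations and water, whereas others, such as claudin 3 and claudin 4, tighten the seal. Occludin is a further membrane protein of the strands, and ZO-1 is the scaffold below them that ties claudins to actin. In the small intestine, Cldn2 is known as a claudin of crypts, Cldn15 is found in crypts and on villi, and Cldn4, Cldn7 and Cldn23 are known from villi or the surface. MEX3A is an RNA-binding protein found in intestinal stem cells (ISCs).

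Mex3a itself was counted 269, 236, 327 and 328 times in the WT mice and 20, 28, 6 and 8 times in the KO mice. Its log2 fold change was -4.43 ± 0.43 (SE), with an adjusted p of 0.031 by edgeR's quasi-likelihood test with Benjamini-Hochberg adjustment. It was the only gene of the 16109 with an adjusted p under 0.05, a share of 0.00621%. Blocking on the replicate number raised that adjusted p to 0.126, with 0 genes called, and leaving out each mouse in turn gave 0.0271 to 0.214, past 0.05 in 6 of 8 cases, with fold changes of -4.87 to -4.17. At an unadjusted p under 0.05, 1350 genes (8.38%) were called, 859 of them higher in KO (5.33%) and 491 lower (3.05%). The median log2 fold change of all genes tested was -0.016. In 2 mice of each genotype, replicates 3 and 4, Xist was counted 36964 to 50562 times, against 6 to 40 times in replicates 1 and 2. Ddx3y, on the Y chromosome, split the mice the other way. It was counted 1655 and 1073 times in WT replicates 1 and 2, 1445 and 1560 times in KO replicates 1 and 2, and 0 times in replicates 3 and 4.

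Levels differed widely among the 10 genes. On the FPKM scale, which divides counts by gene length and library size and so lets genes be compared, Cldn7 was the most abundant of the 10 genes, from 301 to 427 with a median of 379 over the 8 mice. Cldn3 followed with a median of 301 and a range of 241 to 345, which overlapped that of Cldn7. Cldn15 came next at 179 to 238, below every value of Cldn3. Cldn2 ranged from 59.7 to 91.7 FPKM and overlapped neither of its neighbours.

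The remaining genes were lower. Ocln lay between 30.6 and 38.2 FPKM and stood apart from the genes above and below it. Tjp1 (15.0 to 20.4), Cldn4 (9.81 to 26.5), Cldn12 (12.1 to 14.6) and Cldn23 (8.70 to 17.2) overlapped each with the next, so that the order of neighbours is not set by these mice. Every value of Tjp1 lay above every value of Cldn12. Cldn8, a claudin better known from kidney and colon, was the lowest at 1.74 to 4.53 FPKM. It rested on 84 to 254 counts per mouse, whereas Cldn7 rested on 12877 to 22366.

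**Figure D1:**
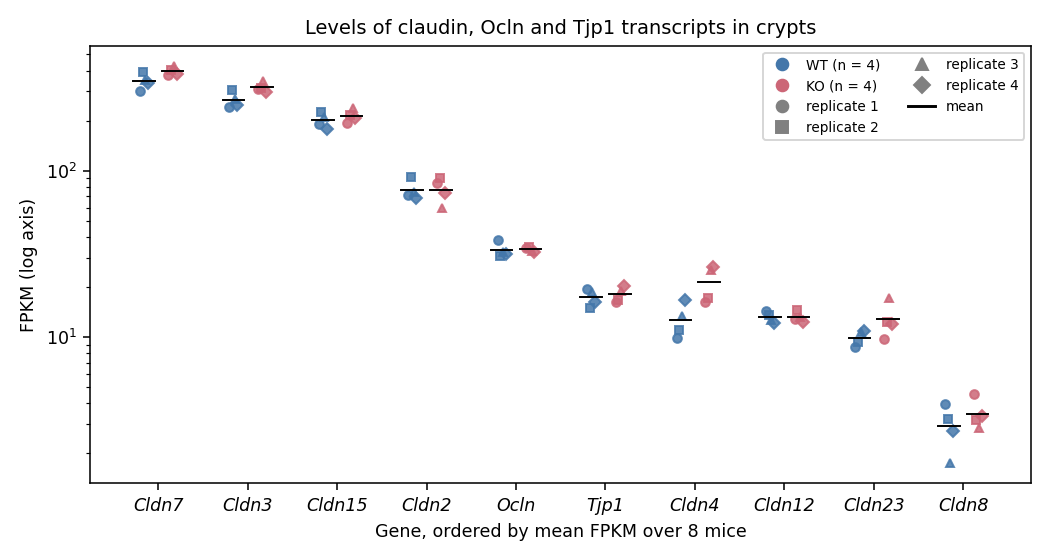
FPKM of the 10 genes (log axis) in each of 4 WT and 4 KO mice, ordered by mean level; marker shapes give the replicate number and black lines the group means. Cldn7 and Cldn3 lead, with medians of 379 and 301, and Cldn8 is lowest; the levels of Cldn4 in KO mice sit mostly above those in WT mice.

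Summed over the 33 claudin symbols in the table, the 8 claudins described here held 99.2 to 99.9% of claudin FPKM in every mouse. Cldn7, Cldn3 and Cldn15 alone held 86.6 to 89.4%, with the 8 mice of both genotypes inside that range.

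MEX3A binds RNA through a short recognition element. The pattern searched for it was a pair of blocks of 4 bases each, with 0 to 8 bases between, on the transcript strand only. The first block ends in AG, which follows G or T, and opens with any base but C; the second reads T, any base but G, and TA. In the GENCODE M21 annotation (GRCm38), 3'UTRs taken from each gene's longest coding transcript held 2 matches in Cldn2, 3 in Cldn8, 12 in Cldn12, 3 in Cldn23, 7 in Ocln and 5 in Tjp1, with overlapping matches counted separately. No match was found in the 3'UTRs of Cldn3 (368 bases), Cldn4 (994 bases), Cldn7 (168 bases) or Cldn15 (942 bases). Such matches are common, since at least 1 is held by 74.3% of 12989 tested genes whose 3'UTR is annotated, with a median of 2 matches and a median length of 1110 bases. Cldn23 and Cldn2 are shown because each is the only gene of its group, villus or surface claudins and crypt claudins, to hold the element. All of these sites lie in 3'UTR exons, on the minus strand for Cldn23 and the plus strand for Cldn2. Capitals mark the blocks, and 4 flanking bases are given on each side.

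Cldn23 chr8:35825268-35825276: ttaaGGAGtTTTActtt
Cldn23 chr8:35824920-35824929: atatATAGtaTTTAtctt
Cldn23 chr8:35824811-35824819: gaacAGAGaTATAtttt
Cldn2 chrX:139809896-139809909: tctgTGAGgacattTCTAgctc
Cldn2 chrX:139811197-139811204: attgATAGTTTAtagt

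The gaps between the blocks of the 3 Cldn23 sites are 1, 2 and 1 bases, and those of the Cldn2 sites 6 and 0. A match of letters is no measure of binding, and binding was not measured in these libraries.

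KO and WT crypts were compared gene by gene to ask whether loss of Mex3a alters the junction. None of the 10 genes passed an adjusted p of 0.05 with edgeR, DESeq2 or limma on FPKM. At an unadjusted p under 0.05, the threshold the study used for its gene list, 2 of the 10 were called with edgeR, Cldn4 and Cldn3, both higher in KO, where 5.33% of all genes were. No gene was lower, against 3.05% of all genes. Every one of the 10 fold changes lay above 0, with a median of 0.13 on the log2 scale, although 4 of them were under 0.05 and 46.1% of all genes tested were higher in KO. With the replicate number as a block, 3 of the 10 were called (11.3% of all genes), Cldn23 being added. In none of the 10 were the genotypes fully apart, where 2.17% of all genes had every KO mouse above every WT mouse and 1.87% every KO mouse below. In RNA of whole crypts, fewer cells of a type and less RNA per cell cannot be told apart.

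**Figure D2:**
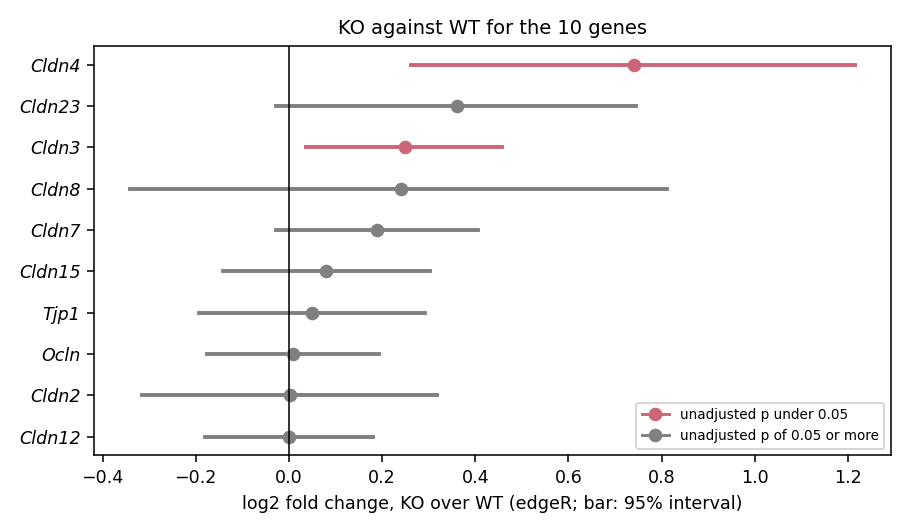
Log2 fold change of KO over WT for the 10 genes with 95% intervals from edgeR; red marks an unadjusted p under 0.05. Cldn4 (0.74) and Cldn3 (0.25) have intervals above 0, and the other intervals include 0; no gene has an adjusted p under 0.05.

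Among the claudins known from villi or the surface, the largest difference was that of Cldn4 (chr5:134945119-134946934, GRCm38, minus strand, a single exon), which encodes a sealing claudin. Its level was 18.1, 20.04, 24.3 and 30.6 CPM (counts scaled to a common library size by TMM) in WT replicates 1 to 4 and 29.5, 31.4, 46.2 and 48.2 CPM in KO replicates 1 to 4. All KO mice but 1 exceeded every WT mouse, and KO replicate 1 lay just below WT replicate 4. The WT mean was 23.3 ± 5.55 CPM and the KO mean 38.8 ± 9.74 CPM (SD, n = 4 each).

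The fold change of Cldn4 was 1.67 (95% interval 1.2 to 2.32), or 0.74 ± 0.21 (SE) on the log2 scale. Unadjusted, its p was 0.00642, and adjusted over all genes it was 0.518. The two-sided exact permutation test over the 70 assignments of the mice gave 0.0571, where 0.0286 is the smallest p that test allows. It takes no account of the replicate numbers. Same-numbered mice differed by ratios of 1.63, 1.56, 1.90 and 1.57, and with the replicate block the unadjusted p was 6.89e-05 and the adjusted p 0.131. Within each genotype, the mice with Xist counts, replicates 3 and 4, had more Cldn4 than those without. A fit with this split as a term gave 3.42e-05 unadjusted and 0.11 adjusted.

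Cldn3 (chr5:134986214-134987472, plus strand) is, like Cldn4, a gene of a single exon, and lies 39279 bases from it with no other gene of the table wholly between. It encodes a sealing claudin. WT replicates 1 to 4 had 307, 387, 339 and 315 CPM and KO replicates 1 to 4 had 392, 396, 437 and 375 CPM. The genotypes overlapped through WT replicate 2, the only WT mouse above a KO mouse. The difference was 0.25 ± 0.093 (SE) on the log2 scale, a 1.19-fold higher level in KO, where p was 0.0258 unadjusted, 0.546 adjusted and 0.0571 by exact permutation. This call was lost on leaving out WT replicate 1 (unadjusted p of 0.068), WT replicate 4 (0.0734) or KO replicate 3 (0.0745), and the difference then stood at 0.20 to 0.22.

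Cldn7 (chr11:69964779-69967885, plus strand), whose protein also lies along the lateral membrane, had the highest level of the family. It was measured at 595, 771, 687 and 665 CPM in WT replicates 1 to 4 and 734, 786, 836 and 744 CPM in KO replicates 1 to 4. Each KO mouse exceeded the WT mouse of its own number, while WT replicate 2 exceeded 2 KO mice. The log2 difference was 0.19 ± 0.097 (SE), with an interval of -0.029 to 0.41 and a p of 0.0816 unadjusted, or 0.635 adjusted.

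Cldn23 (chr8:35824712-35826559, minus strand, a single exon), a claudin of differentiated surface cells, had 16.3, 17.5, 19.8 and 20.4 CPM in WT and 17.9, 22.9, 31.9 and 22.0 CPM in KO. KO replicate 3 was far above the others, and KO replicate 1 lay inside the WT range. The log2 difference was 0.36 ± 0.17 (SE), and its p 0.0652 unadjusted, or 0.617 adjusted. With the replicate block these were 0.0325 and 0.398, around a log2 difference of 0.33. Without KO replicate 3 the difference was 0.18 with an unadjusted p of 0.211, and without KO replicate 1 it was 0.47 with an unadjusted p of 0.0157.

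**Figure D3:**
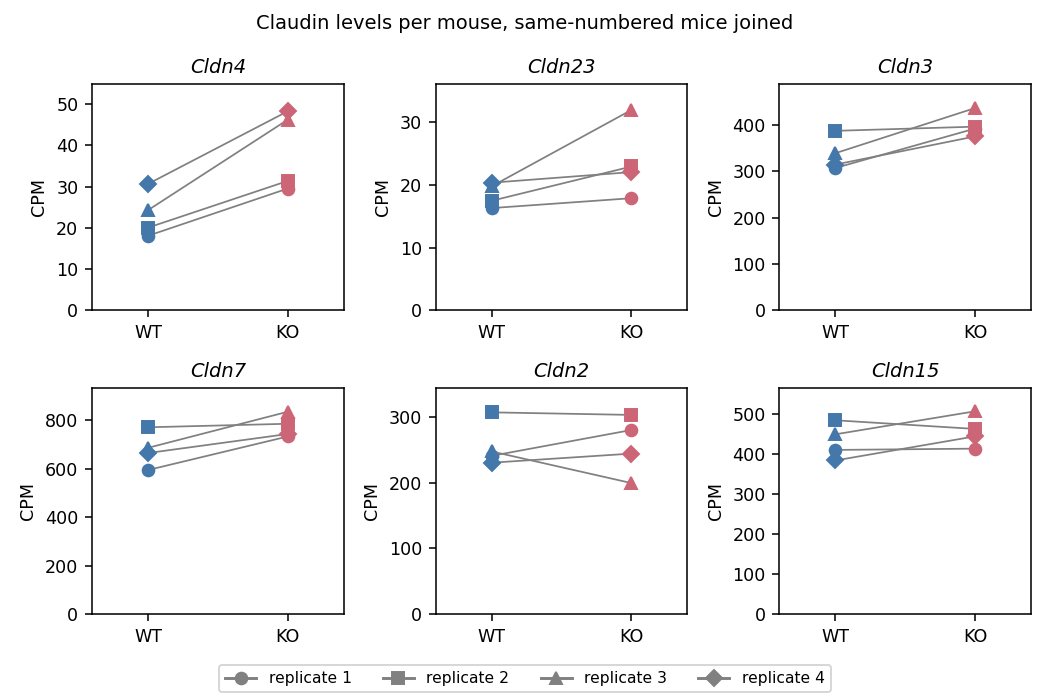
CPM of 6 claudins in each mouse, with lines joining WT and KO mice of the same replicate number; each axis starts at 0. All 4 lines go up for Cldn4, Cldn23, Cldn3 and Cldn7, whereas 2 of 4 go up for Cldn2 and 3 of 4 for Cldn15.

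The pore-forming claudins of the crypt gave small fold changes. Cldn2 (chrX:139800828-139811386, plus strand), which forms a cation and water pore, had 241, 307, 248 and 230 CPM in WT and 280.1, 303, 199 and 244 CPM in KO. The range of the KO mice reached below that of the WT mice and not above it. The means were 256 ± 34.4 and 257 ± 45.2 CPM (SD, n = 4 each), and the 95% interval of the log2 difference ran from -0.32 to 0.32, or 0.804-fold to 1.25-fold. Changes within those bounds could not be told from none.

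Cldn15 (chr5:136966616-136975858, plus strand), a cation pore that supplies luminal sodium for nutrient uptake, had 410, 484, 449 and 384 CPM in WT and 414, 463, 507 and 444 CPM in KO. The genotypes overlapped over most of their ranges. Its log2 difference was 0.081 ± 0.099 (SE), with an interval of -0.14 to 0.30 and an unadjusted p of 0.435, and moved to 0.027 on omitting KO replicate 3, 0.028 on omitting WT replicate 4, 0.12 on omitting KO replicate 1 and 0.14 on omitting WT replicate 2.

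Of the claudins with no fixed place along the crypt and villus, Cldn8 (chr16:88560828-88563183, minus strand), a sealing claudin, had 9.52, 7.66, 4.10 and 6.48 CPM in WT and 10.7, 7.45, 6.71 and 7.88 CPM in KO. Its interval was the widest of the 10, from -0.34 to 0.81 on the log2 scale around 0.24. Leaving out WT replicate 3 gave 0.060, leaving out KO replicate 1 gave 0.082, and leaving out WT replicate 1 gave 0.43. Cldn12 (chr5:5489537-5514958, minus strand), which lacks the tail motif by which most claudins bind ZO proteins, had 51.6 to 61.5 CPM in WT and 52.3 to 61.9 CPM in KO. Its log2 difference was 0.00037, with an interval of -0.18 to 0.18.

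Both partners of the claudins had intervals that included 0. Ocln (chr13:100496507-100552718, minus strand) had 164, 130, 137 and 135 CPM in WT and 145, 146, 140 and 138 CPM in KO. WT replicate 1 was the highest of the 8 mice and WT replicate 2 the lowest, and the log2 difference was 0.0083 with an interval of -0.18 to 0.19. Tjp1 (chr7:65296165-65527781, minus strand) had 154, 118, 146 and 129 CPM in WT and 127, 131, 148 and 160 CPM in KO. Its log2 difference was 0.049, with an interval of -0.19 to 0.29. Whether the difference of Cldn4 or Cldn3 departs from that of these genes was not tested.

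The balance between villus and crypt claudins was described by the mean log2 CPM of Cldn3, Cldn4, Cldn7 and Cldn23 minus that of Cldn2 and Cldn15, with no test, since the genes were chosen with results known. Placing Cldn3 with the villus claudins and Cldn15 with the crypt claudins was a choice, as both are found along the whole axis. It was -1.87, -1.93, -1.70 and -1.48 in WT replicates 1 to 4 and -1.61, -1.61, -1.06 and -1.33 in KO replicates 1 to 4. The KO mice lay higher by 0.34 on average, and WT replicate 4 exceeded the 2 lowest KO mice. The shift was 0.32 on the log2(FPKM + 1) scale and 0.35 to 0.38 without Cldn23, Cldn3 or Cldn15. Without Cldn4 it was 0.22, and without KO replicate 3 it was 0.23.

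As ratios of FPKM, Cldn4 over Cldn2 was 0.17 ± 0.055 in WT and 0.292 ± 0.119 in KO, and Cldn4 over Cldn3 was 0.0484 ± 0.0139 and 0.0673 ± 0.0173 (SD, n = 4 each). Cldn3 over Cldn2 was 3.48 ± 0.152 in WT and 4.25 ± 1.05 in KO. KO replicate 3 stood out in that last ratio at 5.78, with the other KO mice between 3.46 and 4.06 and the WT mice between 3.33 and 3.62.

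Enterocyte markers were examined beside these claudins. The summed CPM of 14 enterocyte markers was 2779, 2011, 3016 and 5308 in WT replicates 1 to 4 and 3225, 4040, 12352 and 7554 in KO replicates 1 to 4. All 14 had fold changes above 0, with a median of 0.92 on the log2 scale. At an unadjusted p under 0.05, 3 of them were called, where 5.33% of all genes were higher. With the replicate block 7 were, where 11.3% of all genes were called in either direction. Cldn4 followed this order of mice closely. From the lowest enterocyte sum to the highest (WT 2, WT 1, WT 3, KO 1, KO 2, WT 4, KO 4 and KO 3), its level was 20.04, 18.1, 24.3, 29.5, 31.4, 30.6, 48.2 and 46.2 CPM, with 3 small steps down. The other claudins followed the order in part. KO replicate 3, with the highest enterocyte sum, had the most Cldn3, Cldn7, Cldn15 and Cldn23 and the least Cldn2 of the 8 mice. Among the WT mice, replicate 4 had the highest enterocyte sum, the most Cldn4 and Cldn23 and the least Cldn2 and Cldn15. WT replicate 2, with the lowest sum of all 8 mice, had the most Cldn2 of the 8, but also the most Cldn3, Cldn7 and Cldn15 of the WT mice. The part of enterocyte RNA in the claudin differences was not tested.

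**Figure D4:**
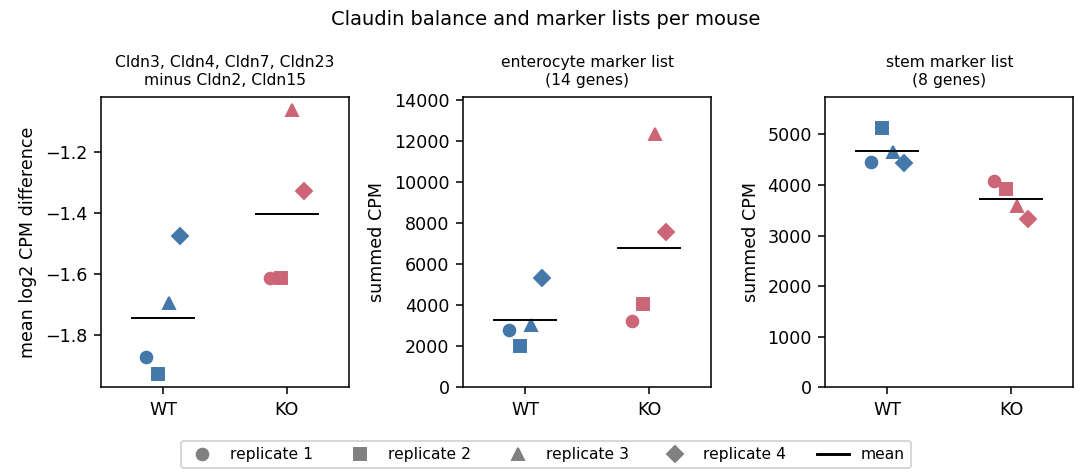
Left, mean log2 CPM of Cldn3, Cldn4, Cldn7 and Cldn23 minus that of Cldn2 and Cldn15; middle and right, summed CPM of 14 enterocyte and 8 stem cell markers; points are mice, with shapes for replicate numbers, and lines are means. Enterocyte sums span 2011 to 5308 in WT and 3225 to 12352 in KO, and stem sums 4442 to 5137 in WT and 3319 to 4076 in KO.

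Stem cell markers differed in the opposite direction. All 8 had fold changes below 0, 5 of them at an unadjusted p under 0.05, with a median of -0.29, and their sums did not overlap (4442 to 5137 CPM in WT, 3319 to 4076 in KO). This and the lists below are read beside 5.33% higher and 3.05% lower over all genes, or 11.3% called with the replicate block. The 4 ileal transport genes were all higher at an unadjusted p, with sums of 81.4 to 412 CPM in WT and 435 to 897 in KO. Of them, 1 also had an adjusted p under 0.05 with DESeq2, which called 93 genes in all. Colon markers summed to 155 to 225 and 172 to 227 CPM with Hoxb13 at 0. Of 5 tested, 2 were lower at an unadjusted p, to which the replicate block added 1 higher. Goblet cell markers summed to 5014 to 6813 CPM in WT and 6004 to 8630 in KO, with 2 of 7 higher and 1 lower at an unadjusted p, or 4 higher and 0 lower with the replicate block. M cell markers, of interest because M cells of the follicle epithelium are known for Cldn4, summed to 47.8 to 63.0 CPM in WT and 38.7 to 60.7 in KO, with 0 of 4 tested called. The part of these cells and regions in the claudin differences was not tested.

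Immune markers summed to 36.1 to 42.3 CPM in WT and 45.6 to 61.5 in KO, so that the genotypes did not overlap. Of the 8, 1 was higher at an unadjusted p (5.33% of all genes), Cd3e, singled out after its values were seen. With the replicate block 4 were higher (11.3% of all genes called in either direction). The part of immune cells in the claudin differences was not tested. Stroma gave 3.60 to 11.8 and 4.66 to 15.1 CPM (1 of 4 tested higher with the block and none without), endothelium 2.99 to 8.86 and 3.57 to 5.92, and blood 0.781 to 4.25 and 0.698 to 1.68, where the 1 gene tested was lower at an unadjusted p (log2 difference -1.26). Paneth cell markers ranged from 14841 to 43901 CPM in WT and from 7390 to 24091 in KO, with 0 of 6 called, or 1 lower with the replicate block. Tuft cell markers gave 41.2 to 99.0 and 33.5 to 58.1 CPM, with 0 of 4 tested called, or 2 lower with the block. Enteroendocrine markers gave 275 to 507 and 347 to 383 CPM, with 1 of 8 higher at an unadjusted p, whereas the block called none higher and 1 lower.

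The other genes of the apical junction were read from lists of 97 genes, of which 96 are in the table and 70 were tested. At an unadjusted p, 13 were higher in KO and 1 lower, that is 14 of 70 where 8.38% of all genes were called, and none had an adjusted p under 0.05 with edgeR, DESeq2 or limma. The adjusted p of the 14 called genes ran from 0.518 to 0.592. The median log2 fold change of all 70 tested genes of these lists was 0.093. The count depended on single mice: it was 25 without KO replicate 1, 7 without KO replicate 3 or KO replicate 4, and 9 without WT replicate 2 or WT replicate 4. Marveld2, F11r, Igsf5, Esam and Pkp2 were called whichever mouse was left out. Of the other 9 called genes, Ildr1, Arhgef2 and Ovol1 lost the call on leaving out 3 of the 8 mice in turn, Mpp5, Nectin2 and Pkp3 on 4, and Tjap1, Cdh17 and Dsg2 on 5, with unadjusted p up to 0.142. Leaving out KO replicate 4 removed 8 of those 9 calls and leaving out KO replicate 3 removed 7.

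Of 16 other junction membrane proteins, 11 were tested, and 4 were higher and 1 lower at an unadjusted p (5.33% and 3.05% of all genes). Marveld2 encodes tricellulin, which seals the points where 3 cells meet, and averaged 47.2 ± 1.75 CPM over WT mice and 55.3 ± 4.12 CPM over KO mice (SD, n = 4 each). Its KO mice all lay above its WT mice, with a log2 difference of 0.23 and an unadjusted p of 0.0109. Ildr1, an angulin that recruits tricellulin to those corners, differed by 0.46 (unadjusted p of 0.025) with the genotypes apart, and the more abundant angulin Lsr by 0.15 (unadjusted p of 0.0908). F11r, which encodes the adhesion molecule JAM-A, differed by 0.21 (unadjusted p of 0.016), and its relative Igsf5 (JAM4) by 0.28 (unadjusted p of 0.0166) with the genotypes apart.

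Esam, an adhesion molecule of endothelial cells, was the only gene of the lists below WT at an unadjusted p, by -0.55 (unadjusted p of 0.0119). Its 4 KO mice, 4.22 to 5.00 CPM, were all below its WT mice, 5.84 to 8.82 CPM. Its level is set here beside the endothelial markers, all 3 tested ones of which had fold changes below 0 with none called, and their part in the difference was not tested. Epcam, the epithelial adhesion molecule that holds Cldn7 at the lateral membrane, was the most abundant gene of the list at a mean of 739 FPKM and differed by 0.067.

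Scaffold and polarity genes gave 3 of 22 called, all higher, where 8.38% of all genes were called. With the replicate block 2 were called, where 11.3% of all genes were. The 3 called without the block were Arhgef2 (log2 difference 0.59, unadjusted p of 0.0209), Mpp5 (0.27, unadjusted p of 0.0263), the polarity scaffold PALS1, and Tjap1 (0.20, unadjusted p of 0.0345), whose p was 0.0532 with the replicate block. Arhgef2 (chr3:88605966-88648052) lies close to the deleted Mex3a (chr3:88532395-88541396) on the same chromosome. The part of that position in its difference was not tested. The most abundant genes of this list, Ybx3 and Tjp3 (ZO-3), differed by -0.013 and 0.065. Among 14 tested junction regulators, Ovol1, an epithelial transcription repressor, was higher by 0.37 (unadjusted p of 0.0208). With the replicate block the transcription factor Grhl2 (-0.16, unadjusted p of 0.0424) and the kinase Wnk4 (-0.24, unadjusted p of 0.0473) were called as well, both lower and both singled out after their values were seen. The abundant protease inhibitors of this list, Spint2 and Spint1, differed by 0.10 and 0.20 with unadjusted p of 0.298 and 0.225. Without KO replicate 3 these differences were 0.046 and 0.077, and without KO replicate 1 that of Spint1 was 0.35 with an unadjusted p of 0.00526.

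In the neighbouring adherens junction, 2 of 12 genes were higher at an unadjusted p (5.33% of all genes), the adhesion molecule Nectin2 (0.30, unadjusted p of 0.0249) and the intestinal cadherin Cdh17 (0.23, unadjusted p of 0.0412). E-cadherin (Cdh1) averaged 947 ± 44.5 CPM over WT mice and 948 ± 26.5 CPM over KO mice (SD, n = 4 each). Of 10 desmosome genes, 3 were higher (5.33% of all genes), the plakophilins Pkp2 and Pkp3 and the cadherin Dsg2. Pkp2 had the smallest unadjusted p of all junction genes in the fit without the replicate block, 0.00291. It had 67.4, 69.6, 76.4 and 71.4 CPM in WT and 86.4, 82.8, 86.7 and 82.9 CPM in KO. Its genotypes did not overlap, its log2 difference was 0.25 ± 0.063 (SE) and its adjusted p was 0.518. With the block, the unadjusted p of Cldn4 (6.89e-05), Arhgef2 (0.00109) and Nectin2 (0.00287) were smaller than that of Pkp2 (0.00654). Pkp3 differed by 0.20 (unadjusted p of 0.0488) and Dsg2 by 0.23 (unadjusted p of 0.0447, or 0.0576 with the replicate block), while Evpl, a plaque protein singled out after its values were seen, was called with the block (0.27, unadjusted p of 0.00714), and the abundant Dsp and Perp differed by 0.023 and 0.12.

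**Figure D5:**
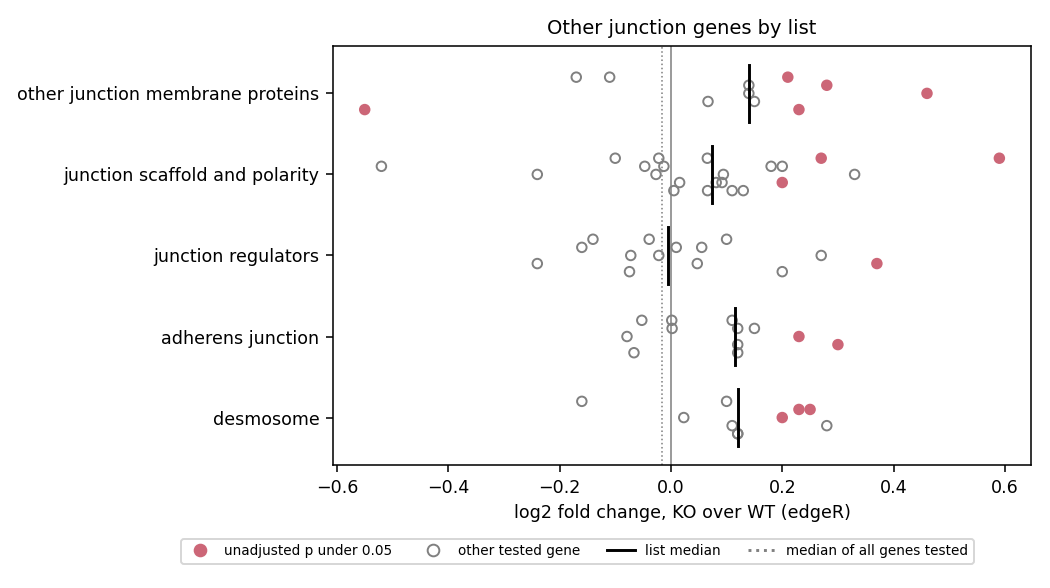
Log2 fold change of KO over WT for the tested genes of 5 junction lists; filled points have an unadjusted p under 0.05, black lines are list medians and the dotted line is the median of all genes tested (-0.016). Called genes sit to the right of 0 except Esam at -0.55, and the list of regulators is centred near 0.

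Claudins outside the 10 genes were scarce. The 20 listed do not cover all of the 33 claudin symbols. Of these 20, 19 are in the table, 8 had no count in any mouse, and Cldn18 alone passed the filter on low counts. Cldn18, a claudin of stomach epithelium, was counted 11, 47, 51 and 616 times in WT and 132, 11, 0 and 159 times in KO. WT replicate 4 alone sets its log2 difference of -1.46 (unadjusted p of 0.293), which was 0.71 without that mouse. The endothelial Cldn5 had 1 to 22 counts, Cldn20 had 1 to 11, Cldn1 had 0 to 5 and Cldn10 had 0 to 3 per mouse, too few to compare.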

How the data were processed

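Crypt RNA of 8 mice was analysed. The authors deposited raw counts per gene, without normalization, and FPKM values, which were checked to be count over gene length times 1 factor per mouse (largest relative departure 6.8e-14). Submitters' processing notes name HISAT2 2.0.5, featureCounts 1.5.0-p3 and CASAVA; strand handling is not given in the sources used here, nor is the build, but the file coordinates of the 10 genes match GRCm38 in GENCODE M21. The authors' own comparison columns (fold changes, p-values) and gene list were not used.

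KO and WT were compared with edgeR 4.0.16 (R 4.3.3): filterByExpr with a minimum count of 10, TMM, quasi-likelihood test with genotype as the only term, all 8 mice, Benjamini-Hochberg adjustment over all genes. CPM are counts divided by the TMM-scaled library size over tested genes. The common biological coefficient of variation was 0.237 and the prior degrees of freedom 3.34. DESeq2 1.42.0, limma 3.58.1 on log2(FPKM + 1), RLE and upper-quartile factors, other filters, leaving out each mouse, the replicate block and, chosen after seeing the data, Xist group as a covariate and the balance without Cldn3 or Cldn4 were alternatives. With 15823 genes simulated for 4 against 4 mice, edgeR recovered 54.1% of genes changed 2-fold and 88.8% of those changed 4-fold, with 7.28% false calls.

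Replicate numbers come from the labels and the controls are littermates. Deviations of same-numbered mice correlated at 0.129, 0.501, 0.141 and 0.294, and each WT mouse matched best the KO mouse of its own number. The Xist split runs along the replicate numbers in both genotypes and was not removed first. These correlations therefore cannot tell pairs of littermates from mice that share that split. The values reported come from the fit without the block, and blocked values are given beside them for genes and lists whose call changes. The mice are separate animals, and no libraries of 1 genotype agreed within sampling noise. Counting error is largest for Cldn8.

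The members and lists were chosen with earlier results of these data known. Named were the 10 genes, Mex3a, Cldn1, Cldn5, Cldn10 and Cldn18, and from each other junction list up to 4 genes per direction with the smallest unadjusted p under 0.05 plus the 2 of highest mean FPKM. Marker lists (enterocyte, stem, goblet, Paneth, enteroendocrine, tuft, M cell, stroma, endothelium, immune, blood, colon, ileum) were used as counts and sums. Python 3.11.15 was used to search 3'UTRs for the MEX3A element.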

Additional observations from a re-analysis of the deposited data

How the results depend on the processing

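None of the 10 genes passed an adjusted p of 0.05 under any alternative. Cldn4 kept an unadjusted p under 0.05 in 18 of 18 alternatives (largest 0.0209) and Cldn3 in 15, while Cldn23 gained such a p in 5 and Cldn7 in 1. Over all genes, calls at an adjusted p numbered 93 with DESeq2, 2 without the filter, 0 with at least 10 counts in every mouse, 3 with limma without the filter, 0 with the replicate block and 4 with the Xist group as a covariate, against 1 as reported, and 0 to 4 on leaving out a mouse. The simulated share of false calls was 24.3% for DESeq2. On leaving out a mouse, calls at an unadjusted p ranged from 846 to 2133 over all genes, from 1 to 3 among the 10 genes and from 7 to 25 among the other junction genes, and the villus minus crypt shift from 0.225 to 0.429.

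Some fold changes changed sign. With upper-quartile factors Cldn2 stood at -0.012, Cldn12 at -0.015, Ocln at -0.0069 and Cdh1 at -0.013; Cldn2 was at -0.0067 with the replicate block and -0.0084 with the Xist group. Leaving out a mouse gave -0.083 to 0.11 for Cldn2, -0.047 to 0.047 for Cldn12, -0.031 to 0.085 for Ocln, -0.016 to 0.11 for Tjp1, -1.99 to 0.71 for Cldn18, -0.063 to 0.048 for Ybx3, -0.016 to 0.038 for Cdh1 and -0.026 to 0.057 for Dsp. The cause was not tested. Among the other junction genes the replicate block called 12 higher and 3 lower; among the genes named it removed the calls of Tjap1 and Dsg2 and added those of Cldn23, Evpl, Grhl2 and Wnk4.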
